A study of Homo sapiens with 4 samples.

Results

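The S100 and epidermal differentiation genes were examined by RNA-seq in BICR10, a cell line of human head and neck cancer. Members were taken by gene symbol, as the S100 family (19 genes), the small proline-rich SPRR family (12 genes), the late cornified envelope LCE family (21 genes) and 12 single genes, namely FLG, FLG2, IVL, LOR, CRNN, TCHH, RPTN, HRNR, TGM1, TGM3, CNFN and CSTA. Together these were 64 of the 60623 genes in the count files. The cells were infected with lentivirus carrying a control hairpin (shControl) or a hairpin against YEATS2 (shYEATS2), and cells of both conditions were selected with puromycin at 1 μg/mL for 3 days before harvest. YEATS2 is a reader of histone acylation, and the comparison asks which transcripts differ once it is silenced. Each condition had 2 libraries. The sources used here do not say which YEATS2 hairpin each shYEATS2 library carried, nor which culture each library came from. The study describes its replicates in general as biological, but says nothing of these libraries in particular, so the p-values measure only the spread between them, part of which may be technical.

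S100 proteins are small calcium-binding proteins with EF-hand motifs that mostly act as dimers, changing shape with calcium and then binding partners such as annexins, myosin or p53. Some are also released from cells and bind receptors such as RAGE (gene AGER) and TLR4. Most S100 genes lie in the epidermal differentiation complex of chromosome 1q21.3, beside the genes for involucrin, loricrin, filaggrin and the SPRR and LCE proteins. Squamous epithelial cells switch these genes on as they differentiate, and transglutaminases crosslink the products into the cornified envelope under the plasma membrane.

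Of the 64 members, 56 lay on chromosome 1 of GRCh38 between 151982915 and 153632039, and the other 8 on other chromosomes. RefSeq promoter windows of 300 bases around a transcript start were found for 54 of the 64 members. Windows of 4 members are printed because their genes bear the main result, 3 from genes that were lower in shYEATS2 and S100A10 from the other end of the complex, which was not called. All lie on the minus strand of GRCh38.p14 and run 5′ to 3′. Capitals mark matches to TGANTCA, the AP-1 motif (a palindrome, so both strands are covered), to the GC box GGGCGG and to the TATA box TATAAA, the last 2 searched on both strands.
S100A2 (chr1:153565795-153566094): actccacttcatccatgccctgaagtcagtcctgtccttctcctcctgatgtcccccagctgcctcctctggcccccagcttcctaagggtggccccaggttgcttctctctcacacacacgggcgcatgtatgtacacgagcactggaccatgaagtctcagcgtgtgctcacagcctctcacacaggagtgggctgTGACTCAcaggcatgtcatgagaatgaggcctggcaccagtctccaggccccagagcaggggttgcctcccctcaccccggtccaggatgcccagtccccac
S100A3 (chr1:153549209-153549508): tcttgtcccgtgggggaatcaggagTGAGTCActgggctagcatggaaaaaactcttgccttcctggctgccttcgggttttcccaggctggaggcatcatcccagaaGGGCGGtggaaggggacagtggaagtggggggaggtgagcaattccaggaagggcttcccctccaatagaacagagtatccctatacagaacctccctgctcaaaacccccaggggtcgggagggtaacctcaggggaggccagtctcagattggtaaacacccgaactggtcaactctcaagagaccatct
S100A6 (chr1:153535942-153536241): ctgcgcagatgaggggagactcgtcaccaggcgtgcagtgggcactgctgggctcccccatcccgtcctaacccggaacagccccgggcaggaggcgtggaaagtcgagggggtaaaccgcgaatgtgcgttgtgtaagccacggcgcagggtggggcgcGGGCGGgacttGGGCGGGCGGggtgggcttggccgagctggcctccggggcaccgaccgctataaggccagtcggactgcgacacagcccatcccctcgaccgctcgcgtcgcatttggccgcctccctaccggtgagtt
S100A10 (chr1:151993810-151994109): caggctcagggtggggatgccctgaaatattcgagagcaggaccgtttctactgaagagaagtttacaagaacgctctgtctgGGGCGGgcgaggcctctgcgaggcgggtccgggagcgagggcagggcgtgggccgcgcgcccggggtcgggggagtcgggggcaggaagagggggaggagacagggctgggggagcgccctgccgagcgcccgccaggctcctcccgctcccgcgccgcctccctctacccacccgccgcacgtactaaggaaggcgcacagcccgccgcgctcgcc
The S100A2 window held 1 AP-1 match (its other window, chr1:153563838-153564137, held no match to any of these motifs), the S100A3 window 1 AP-1 match and 1 GC box, the S100A6 window 3 GC boxes, 2 of them overlapping, and the S100A10 window 1 GC box. Of the 35116 promoter windows of 300 bases in the RefSeq table, 7.71% held the AP-1 motif, 11.5% the TATA box and 45% the GC box. The 7 members called lower had 11 windows, of which 2 held an AP-1 match, 2 a TATA box and 5 a GC box. A match is a description of the letters in the window, not of binding.

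Counts on genes summed to 47297970 and 39824898 for shControl and to 24072396 and 11334133 for shYEATS2, so the shYEATS2 libraries were shallower throughout and depth cannot be told apart from the condition. YEATS2 itself was at 66.1 and 66.6 CPM (counts scaled to library size, with TMM factors that correct for differences in RNA composition) in shControl and at 29.2 and 29.1 CPM in shYEATS2, which is a change of −1.19 on the log2 scale (standard error, SE, 0.08). Markers of other cells were summed for comparison. The 10 fibroblast markers summed to 7539 and 7454 CPM in shControl and 2421 and 2286 CPM in shYEATS2. Of the 9 tested, 8 were lower (adjusted p under 0.05, edgeR), where 23.6% of all tested genes were lower and 22.6% higher. The 10 squamous epithelial markers summed to between 74.1 and 76.9 CPM in shControl and between 52.5 and 57.2 CPM in shYEATS2. Of these, 4 averaged under 1 CPM, and of the 8 tested 4 were lower and 1 higher. TP63, the factor that defines squamous basal cells, reached at most 0.254 CPM, and the basal keratin KRT5 was at 16.4 and 14.9 CPM in shControl and 1.03 and 1.36 CPM in shYEATS2. The other 3 lower were KRT14, KRT6B and EPCAM. The higher one was CDH1, or E-cadherin, at 0.352 and 0.317 CPM in shControl and 2.84 and 2.12 CPM in shYEATS2. KRT14 reached the counts needed for a test only in shControl, and CDH1 reached them in both shYEATS2 libraries and 1 shControl library. Of 10 myeloid markers 9 averaged under 1 CPM, and their sums ran from 1.03 to 2.71 CPM with CD68, FCGR3A and MPO at 0. Melanocyte and Schwann cell markers summed to between 22.7 and 24.4 CPM in all libraries, with MLANA and TYR at 0. Endothelial markers summed to between 58.9 and 61.3 CPM in shControl and between 36.3 and 39.4 CPM in shYEATS2, with CLDN5 and TIE1 at 0. In such bulk RNA fewer cells of a type and less RNA per cell cannot be told apart, and the part of the fibroblast or squamous markers in the results below was not tested.

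The S100 family supplied nearly all of the signal. At least 1 count was found for 34 of the 64 members, and 14 had enough counts for a test. These were S100A1, S100A2, S100A3, S100A4, S100A6, S100A10, S100A11, S100A13, S100A16, LCE3D, IVL, TCHH, CNFN and CSTA. Per kilobase of exon, S100A6 stood highest in shControl with 1139 ± 212 CPM per kb (SD, n = 2), followed by S100A11 with 390 ± 17.4, S100A10 with 179 ± 7.05, S100A16 with 68.1 ± 0.993 and S100A3 with 60.8 ± 5.25 CPM per kb. CSTA, the most abundant member outside the S100 family, had 28.0 ± 2.12 CPM per kb. S100A2 at 21.9 ± 4.29 and S100A4 at 21.6 ± 3.68 CPM per kb did not differ beyond their spread. In shYEATS2 CSTA, at 41.3 ± 4.75 CPM per kb, stood above S100A16, at 39.0 ± 1.82, by less than the spread between libraries, while S100A2 dropped to 7.64 ± 0.277 CPM per kb.

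**Figure D1:**
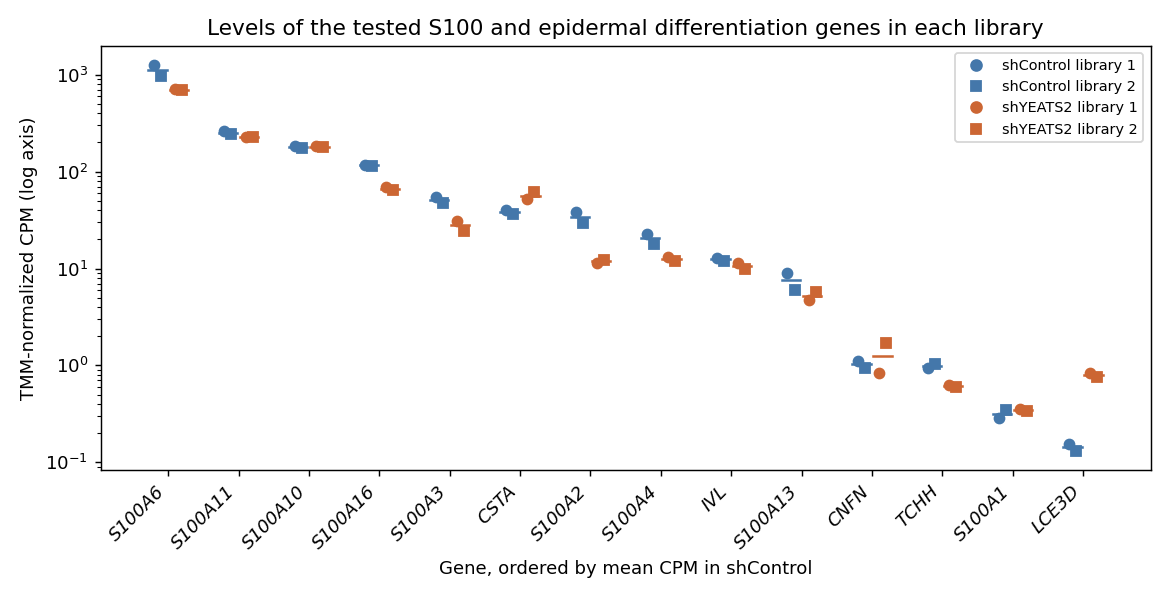
TMM-normalized CPM on a log axis for the 14 tested members in each of the 4 libraries, with bars at the group means. The shYEATS2 libraries lie below both shControl libraries for S100A2, S100A3, S100A4, S100A6, S100A11, S100A13, S100A16, IVL and TCHH, and above them for CSTA and LCE3D.

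Of the 13 S100 genes between S100A9 and S100A1 at the distal end of the complex, 7 could be tested and 6 were lower in shYEATS2. This stretch was chosen after the values were seen. S100A1 was the exception, while S100A10 at the other end lay within the range of shControl. Of the 9 tested S100 genes, 7 were lower and 0 higher at a Benjamini-Hochberg adjusted p under 0.05 by edgeR's quasi-likelihood test, where 23.6% of all 17058 tested genes were lower and 22.6% higher (46.2% in either direction). The median log2 fold change was −0.66 over the 9 genes and −0.01 over all tested genes. DESeq2 called 5 of them lower, where it called 16.5% of all genes it tested lower and 13.9% higher. For 7 of the 9 genes neither shYEATS2 value reached the lower shControl value, as for 36.3% of all tested genes, while 35.3% of all tested genes lay wholly above shControl. With a change of at least 2-fold asked for as well, 1 S100 gene was lower (3.7% of all tested genes). LCE3D was the 1 member higher (5.99%), but it had enough counts for a test only in shYEATS2. Scaling by library totals alone in place of TMM moved the median of all tested genes to 0.12 and that of the 9 S100 genes to −0.53, with 5 called lower. The split over all tested genes then was 2571 lower and 5441 higher, in place of 4019 lower and 3858 higher.

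S100A2 (chr1:153561108-153567890), whose product is a mostly nuclear S100 protein known to bind p53, showed the largest fall among the tested members. It was counted 1752 and 1105 times in shControl and 292 and 143 times in shYEATS2, or 38.6 and 29.2 CPM against 11.5 and 12.1 CPM. The shControl libraries differed from each other far more than the shYEATS2 libraries did, yet the groups stayed well apart. The log2 fold change was −1.53 (SE 0.12, adjusted p = 7.2e-13, edgeR), which leaves 34.6% of the control level. Without shYEATS2 replicate 2 the log2 fold change was −1.57 but its adjusted p rose to 0.16 (edgeR).

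S100A3 (chr1:153547329-153549258), abundant in the hair cuticle, and S100A16 (chr1:153606886-153613145), a widely expressed member, were lower by similar amounts. S100A3 was at 54.2 and 48.0 CPM in shControl and at 30.9 and 24.7 CPM in shYEATS2. Its log2 fold change was −0.85 (SE 0.09, adjusted p = 1.1e-11, edgeR). S100A16 was at 117 and 115 CPM in shControl and at 68.6 and 64.3 CPM in shYEATS2, with libraries of a condition close together. Its log2 fold change was −0.80 (SE 0.07, adjusted p = 2.8e-16, edgeR).

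S100A6 (chr1:153534599-153536244), or calcyclin, which binds the ubiquitin ligase adaptor CACYBP, fell from the highest level of the family. Its libraries were at 1252 and 960 CPM in shControl and 704 and 694 CPM in shYEATS2. The spread in shControl was wide, and both shYEATS2 libraries lay below it. The log2 fold change was −0.66 (SE 0.14, adjusted p = 0.018, edgeR). The adjusted p was 0.11 with limma-voom, 0.46 in edgeR without shYEATS2 replicate 1 and 0.38 without shYEATS2 replicate 2, at log2 fold changes of −0.65, −0.69 and −0.66. S100A4 (chr1:153543613-153550136), known as metastasin, binds nonmuscle myosin and is also widely used as a fibroblast marker. It was at 22.9 and 18.0 CPM in shControl and 13.2 and 11.9 CPM in shYEATS2. Its log2 fold change was −0.69 (SE 0.11, adjusted p = 8.9e-07, edgeR).

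S100A13 (chr1:153618787-153631360), which takes part in the export of FGF1 from cells, was less certain. Its libraries were at 9.07 and 6.0 CPM in shControl and 4.69 and 5.68 CPM in shYEATS2, so that the closest libraries of the 2 conditions nearly touched. The log2 fold change was −0.58 (SE 0.18, adjusted p = 0.0061, edgeR), and the adjusted p was 0.11 with DESeq2, 0.06 with library totals alone and 0.10 with thinned counts. It shrank to −0.25 (adjusted p = 0.38, edgeR) without shControl replicate 1 and to −0.43 (adjusted p = 0.074) without shYEATS2 replicate 1. Exons of S100A13 and S100A1 overlap over 235 bases on opposite strands, and the strand setting of the counting is not given in the sources used here. Those of S100A13 also overlap the noncoding RNA AL162258.1, which was at 0 counts, over 536 bases on the same strand (24.2% of its exons). Pairs from these overlaps may therefore have been tallied as ambiguous and left out of the genes on both sides. S100A1, a member best known from heart muscle, had 13 and 13 counts in shControl and 9 and 4 in shYEATS2, and its log2 fold change of 0.15 was not called (SE 0.62).

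S100A10 and S100A11 lie together, far from the other S100 genes of the complex. S100A10 (chr1:151982915-151993859), or p11, which has lost calcium binding and forms a tetramer with annexin A2, was at 186 and 176 CPM in shControl and at 185 and 178 CPM in shYEATS2. The groups overlapped completely, and the log2 fold change of 0.01 had a 95% interval from −0.11 to 0.13. S100A11 (chr1:152032506-152047907), a partner of annexin A1 and a substrate of transglutaminase, was at 261 and 245 CPM in shControl and at 229 and 228 CPM in shYEATS2. Its log2 fold change was −0.14 (SE 0.06, adjusted p = 0.041, edgeR). That call was lost with DESeq2 (adjusted p = 0.051), with upper-quartile scaling (0.068), with library totals alone (0.89), with counts thinned to equal depth (0.28), without shControl replicate 1 (0.40) and without shControl replicate 2 (0.069).

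Summed over the 19 genes, the S100 family was at 1941 and 1597 CPM in the shControl libraries and at 1248 and 1219 CPM in the shYEATS2 libraries. The means (± SD, n = 2 each) were 1769 ± 243 CPM for shControl against 1234 ± 20.5 CPM for shYEATS2, a ratio of 0.697. S100A6 made up 64.5% and 60.1% of the S100 counts in shControl and 56.4% and 56.9% in shYEATS2. For every S100A10 count there were 6.74 and 5.46 S100A6 counts in shControl and 3.81 and 3.90 in shYEATS2, a ratio that does not depend on the scaling of the libraries. For S100A2 the same ratio to S100A10 was 0.208 and 0.166 in shControl and 0.0623 and 0.0681 in shYEATS2. With 2 libraries a group the exact permutation test of such a value cannot go below a two-sided p of 0.333.

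**Figure D2:**
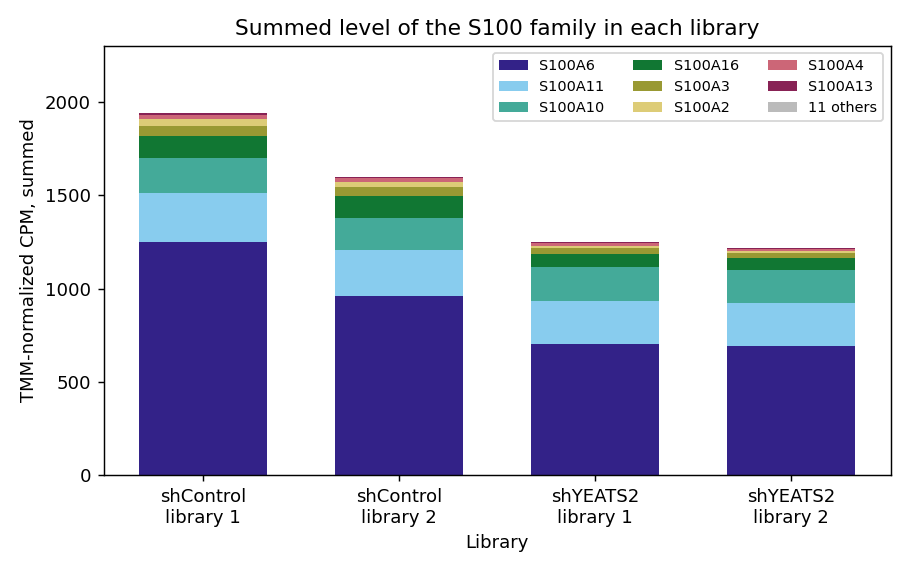
Stacked bars of TMM-normalized CPM of the S100 genes in each library, from 0, with 11 low genes pooled. The bars reach 1941 and 1597 CPM in shControl and 1248 and 1219 CPM in shYEATS2, and most of the drop lies in the S100A6 segment while those of S100A10 and S100A11 keep nearly the same height.

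Most of the lower genes lay together on the chromosome. S100A6, S100A5, S100A4, S100A3, S100A2 and S100A16 fill 78.6 kb of chromosome 1 from 153534599 to 153613145, all on the minus strand. Of these 6, 5 had enough counts for a test and were lower, as were 23.6% of all tested genes. The remaining one, S100A5, had 2 and 6 counts in shControl and 4 and 0 in shYEATS2 and was not tested. The bounds of this stretch were set after the values were seen, so the count within it is no support for a clustering of lower genes. Just beyond it lie S100A13, which was lower, and S100A1, which was not called. S100A3 lies within the span of S100A4, and the genes share no exon. Of the 34 annotated genes between the outermost members that are not members themselves, only the noncoding RNAs BX470102.2 and FLG-AS1 had enough counts, and neither was called. BX470102.2, which lies between S100A2 and S100A16, had a log2 fold change of −0.40 (SE 0.26). Of the next 10 tested coding genes beyond S100A1, chosen after the values were seen, 3 were lower and 3 higher (23.6% and 22.6% of all tested genes). CHTOP, the nearest, had a log2 fold change of 0.17, and SNAPIN, the next, of −0.67. Of the 10 tested coding genes before S100A10, 1 was lower and 2 were higher, beside the same shares of all tested genes.

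**Figure D3:**
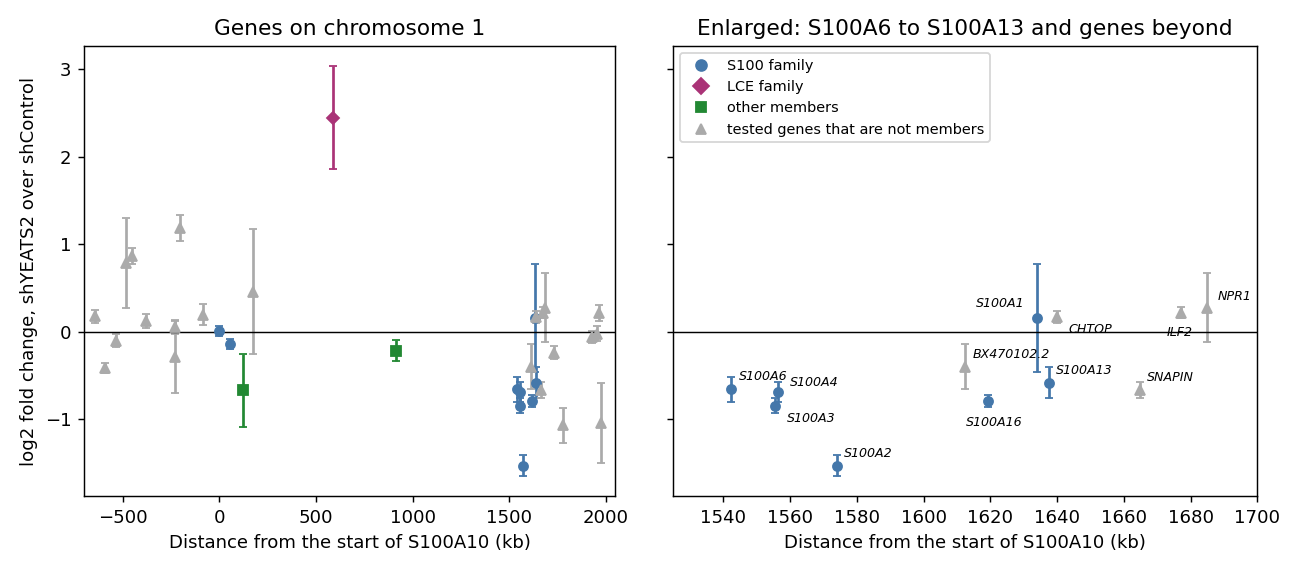
Log2 fold change with its standard error against the distance of each transcription start from that of S100A10 in kb, for tested members and tested non-members on chromosome 1, with an enlargement of the distal end at right. The S100 genes of the distal cluster other than S100A1 lie between −1.53 and −0.58. Of the non-members, BX470102.2 within the cluster is at −0.40, and those beyond it fall on both sides of 0, with SNAPIN at −0.67.

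Among the members that form or regulate the cornified envelope, 5 of 45 could be tested, of which 2 were higher and 0 lower, against 22.6% higher and 23.6% lower among all tested genes. CSTA encodes cystatin A, an inhibitor of cysteine proteases that is built into the envelope, and lies at chr3:122325248-122341969. It was at 40.3 and 36.2 CPM in shControl and at 51.9 and 61.0 CPM in shYEATS2, with no overlap of the groups. The log2 fold change was 0.54 (SE 0.08, adjusted p = 5.0e-08, edgeR), and it stayed between 0.43 and 0.68 over all alternatives. LCE3D (chr1:152579381-152580516), a late envelope protein, was counted 7 and 5 times in shControl and 21 and 9 times in shYEATS2, or 0.154 and 0.132 CPM against 0.828 and 0.763 CPM. Its log2 fold change was 2.45 (SE 0.58, adjusted p = 3.7e-04, edgeR, and 0.027 with DESeq2). LCE3D reached the limit for testing, about 0.313 CPM in 2 libraries, only through the shYEATS2 libraries, so its count among the higher genes is no support for a direction of the group. It had too few counts for a test with counts thinned to the smallest library or with at least 10 counts asked for in every library.

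IVL (chr1:152908546-152911886), or involucrin, the early scaffold of the envelope, was at 12.9 and 12.1 CPM in shControl and at 11.3 and 9.83 CPM in shYEATS2. The groups did not overlap, but the log2 fold change of −0.22 (SE 0.12, adjusted p = 0.13, edgeR) was not called. Its 95% interval ran from −0.45 to 0.02, and without shYEATS2 replicate 1 it was −0.36 with an adjusted p of 0.048. CNFN, or cornifelin, was at 1.12 and 0.952 CPM in shControl and at 0.828 and 1.70 CPM in shYEATS2. The shYEATS2 libraries stood on either side of the controls, and its log2 fold change of 0.14 turned to −0.34 without shYEATS2 replicate 2. TCHH, or trichohyalin, of the hair root sheath and filiform papillae, was at 0.947 and 1.03 CPM in shControl and at 0.631 and 0.593 CPM in shYEATS2, a log2 fold change of −0.67 (SE 0.42, adjusted p = 0.19, edgeR). CSTA and IVL together held between 95.0% and 95.3% of the counts of the 45 members outside the S100 family in every library.

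**Figure D4:**
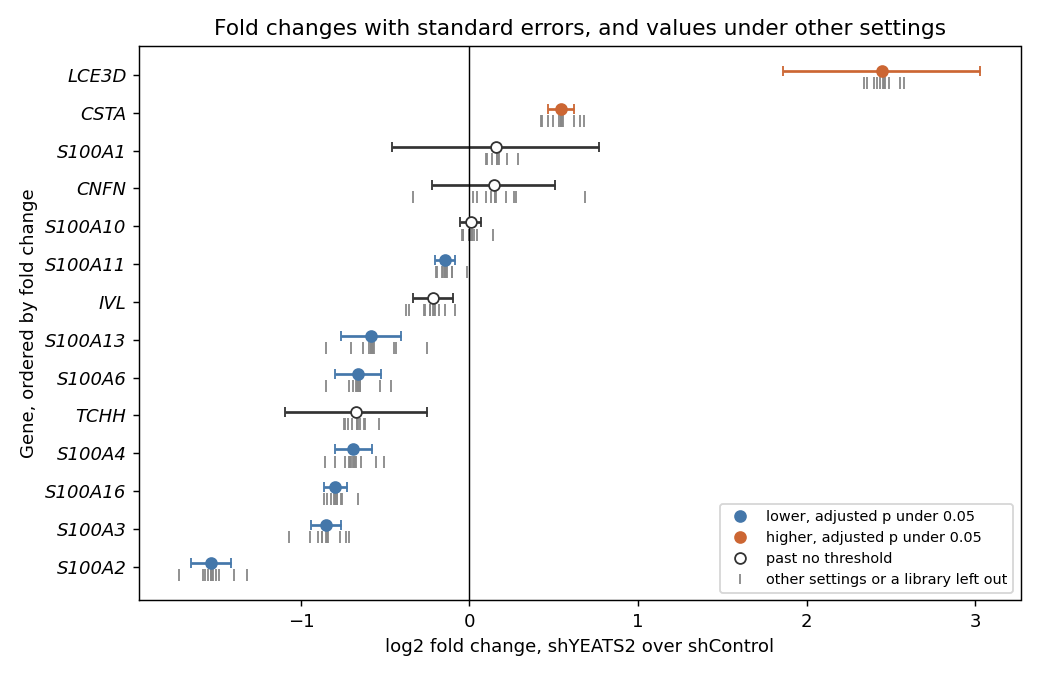
Log2 fold change (shYEATS2 over shControl) of each tested member with its standard error, filled where the adjusted p was under 0.05, and grey ticks for the values under each alternative setting or with 1 library left out. The ticks of S100A2, S100A3, S100A4, S100A6, S100A13 and S100A16 all lie below 0, those of CSTA and LCE3D all above it, and those of S100A10 and CNFN on both sides.

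Terminal cornification genes were close to silent in both conditions. No count in any library was found for 30 members, namely 18 of the 21 LCE genes, 9 of the 12 SPRR genes, S100G, TGM3 and HRNR. A count of 0 allows up to 3 counts, which correspond to 0.0661 and 0.0793 CPM in the shControl libraries and 0.118 and 0.254 CPM in the shYEATS2 libraries (counting error only). Another 20 members had counts but too few to test, and 8 of these, among them filaggrin (FLG) and loricrin (LOR), rested on 1 count. The highest of the untested were TGM1, the membrane-bound transglutaminase of keratinocytes, with 8 and 6 counts in shControl and 8 and 1 in shYEATS2, then LCE2A with 10 and 3 against 3 and 0, and S100A8, a subunit of calprotectin, with 7 and 4 against 4 and 0. S100A5 followed with the counts given above, and S100A14 with 5 and 4 against 2 and 0 and SPRR2D with 1 and 1 against 6 and 3 shared the next place. After scaling, SPRR2D was at 0.0220 and 0.0264 CPM in shControl and 0.237 and 0.254 CPM in shYEATS2, too few reads for a fold change to be given. Read pairs that aligned to more than 1 place were tallied apart from genes, so SPRR2 and LCE genes, which have near-identical copies, may be undercounted. TGM3 shares 2553 bases, or 94.8% of its exons, on the same strand with the coding gene AL121899.2, which was also at 0. Pairs from there may have been tallied as ambiguous, so the 0 of TGM3 cannot show that it was silent.

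Genes that work with the members outside the rule were read from lists of genes with known roles. Of 15 receptors and binding partners of S100 proteins, 6 were lower and 5 higher (23.6% and 22.6% of all tested genes), with a median log2 fold change of −0.09. FGF1, among the higher genes, reached the limit for testing only in shYEATS2. BSG, or basigin, a receptor of S100A9, was at 1096 and 1086 CPM in shControl and at 795 and 695 CPM in shYEATS2, a log2 fold change of −0.55. TLR4, which binds calprotectin, rose from 19.1 and 20.4 to 28.9 and 31.0 CPM, a log2 fold change of 0.59. ANXA1, the partner of S100A11, rose from 436 and 457 to 597 and 616 CPM, a log2 fold change of 0.44. The partners of other S100 proteins were mixed, with ANXA2 at −0.26 and MYH9 at −0.30, both lower, and AGER at 0.06 on the log2 scale and not called. With library totals alone ANXA2 lost its call (adjusted p = 0.073, edgeR).

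Of 39 other envelope and desquamation genes 12 could be tested, of which 7 were lower and 2 higher (23.6% and 22.6% of all tested genes), with a median log2 fold change of −0.35. KRT2, among the lower genes, reached the limit for testing only in shControl, and EVPL, among the higher genes, reached it in 1 shControl library. PPL, or periplakin, a plakin of the envelope, was at 33.0 and 32.9 CPM in shControl and at 18.6 and 17.3 CPM in shYEATS2, a log2 fold change of −0.86. CSTB, or cystatin B, went the other way from CSTA, from 139 and 130 to 100 and 116 CPM, a log2 fold change of −0.33. BLMH, a protease that breaks down filaggrin, had a log2 fold change of −0.25, and lost its call with library totals alone (adjusted p = 0.15, edgeR), with thinned counts (0.087) and without shControl replicate 2 (0.070). Of the other 8 genes of the complex, from TCHHL1 to PGLYRP4, 0 had enough counts.

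Of 17 genes of the barrier lipids 9 could be tested, of which 2 were lower and 4 higher (23.6% and 22.6% of all tested genes), with a median log2 fold change of 0.19. ALOXE3, among the higher genes, reached the limit for testing only in shYEATS2. CYP4F22, the hydroxylase that makes the fatty acids of acylceramides, was at 32.8 and 34.9 CPM in shControl and at 3.63 and 2.54 CPM in shYEATS2. SMPD1, the acid sphingomyelinase, had a log2 fold change of −0.89, and UGCG, the glucosylceramide synthase, of 0.51. Of 34 transcription factors and receptors that regulate keratinocyte differentiation, 26 could be tested, of which 16 were higher and 4 lower (22.6% and 23.6% of all tested genes), with a median of 0.37. EHF, among the higher genes, reached the limit for testing only in shYEATS2. KLF4, a factor that promotes barrier formation, was at 20.1 and 19.6 CPM in shControl and at 60.1 and 52.6 CPM in shYEATS2, a log2 fold change of 1.52. TFAP2C had a log2 fold change of 0.87, and SATB1, a chromatin organizer that acts on the complex in keratinocytes, of −0.92. The genes followed through the alternatives were BSG, TLR4, ANXA1, PPL, CSTB, BLMH, CYP4F22, SMPD1, UGCG, KLF4, TFAP2C and SATB1. For these, BLMH apart, the adjusted p stayed under 0.05 in every alternative on all 4 libraries (edgeR, DESeq2 or limma-voom). With each library left out their log2 fold changes kept their sign. The other genes named from these lists were not followed through all of these, and EVPL lost its call with DESeq2 (adjusted p = 0.28).

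**Figure D5:**
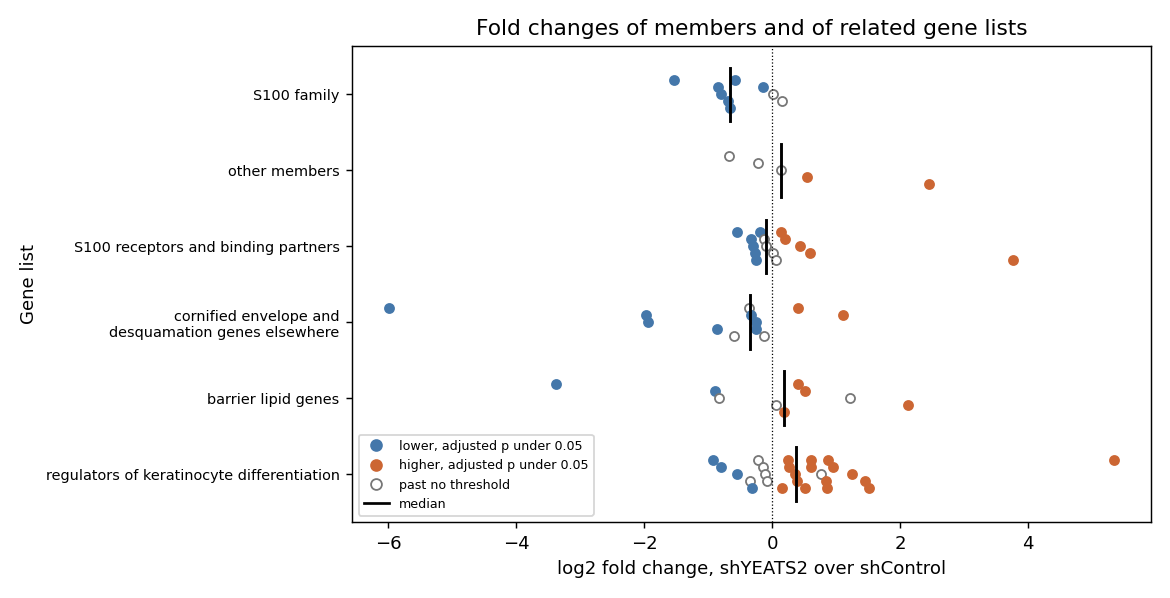
Log2 fold change of each tested gene in the S100 family, among the other members and in 4 lists of related genes, coloured where the adjusted p was under 0.05, with a bar at each median. The S100 genes lie at or below 0 apart from S100A1 and S100A10 (median −0.66), while most regulators of differentiation lie above it (median 0.37).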

How the data were processed

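Counts of read pairs per Ensembl gene were deposited for 4 libraries of BICR10 cells, 2 per condition. The authors used a stranded mRNA kit and 150 bp paired reads, with STAR for alignment to GRCh38 and HTSeq for counting, and the deposited counts carry no normalization. The STAR version, annotation release and strand setting are not given in the sources used here. Tallies outside genes (no feature, ambiguous or not unique) made up between 15.3% and 16.5% of the tallied pairs and were left out. Positions and exon lengths came from GENCODE release 44 (GRCh38), which held 60295 of the 60623 identifiers and all 64 members, and promoters from RefSeq.

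Genes passing edgeR's filterByExpr (17058, about 0.313 CPM or 10 counts in 2 libraries) were scaled by TMM and tested with edgeR 4.0.16 (glmQLFit, robust, and glmQLFTest) in R 4.3.3, with Benjamini-Hochberg adjustment over all of them and a threshold of 0.05, the one the study applied with DESeq2. Standard errors are the size of the log2 fold change over the square root of F, and 95% intervals are normal. Each ± is the SD of 2 libraries. Replicates differed by more than counting noise (chi-square per degree of freedom 5.95 in shControl and 5.39 in shYEATS2). Alternatives were other scalings (DESeq2 size factors, library totals, upper quartiles), filters and thresholds, DESeq2 1.42.0, limma-voom (limma 3.58.1), a replicate block, thinning to 11334133 counts and leaving out each library. Members and lists were chosen with earlier results of these data known. Named genes are all tested members, the 5 untested members with most counts (6 with a tie), YEATS2, and in each related list the 3 largest called changes at 10 CPM or more. ANXA2, MYH9, AGER and the genes flanking the complex were added after their values were seen. So were the stretches from S100A9 to S100A1 and from S100A6 to S100A16.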

Additional observations from a re-analysis of the deposited data

How the results depend on the processing

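The 7 S100 genes called lower became 5 with DESeq2, with library totals alone, with thinned counts and at an adjusted p under 0.01, 6 with limma-voom and upper quartiles, and 1 where the fold had to reach 2 as well. The same counts hold for all members together. Counts of calls are not given for fits that left out 1 library, since 1 condition then rested on a lone library. Among the other members the count called higher fell from 2 to 1 with at least 10 counts in every library and with thinned counts (LCE3D is not tested in either) and with at least 2-fold, for all members likewise. The count of S100 genes called higher was 0 in every alternative on all 4 libraries. The median log2 fold change over the S100 genes ranged from −0.71 to −0.53 over the settings and from −0.85 to −0.49 over the libraries left out. Over all members it was −0.27 with library totals alone, −0.58 with at least 10 counts in every library and −0.63 with thinned counts, and ranged from −0.62 to −0.25 over the libraries left out. For the other members it ranged from −0.15 to 0.66 over the libraries left out, where the number of genes tested also differed. The log2 fold change of S100A10 turned to −0.042 with no low-count filter and to −0.003 with DESeq2 and with thinned counts, and ranged from −0.041 to 0.042 over the libraries left out, and that of CNFN ranged from −0.335 to 0.686. Over all tested genes DESeq2 called 2846 lower and 2393 higher, and thinned counts gave 2378 and 2400, against 4019 and 3858. Library totals alone gave 2571 and 5441, limma-voom 3991 and 3980, upper quartiles 3787 and 3903, and the replicate block 4142 and 3871. With at least 10 counts in every library they were 3757 and 3569. The share over all tested genes at an adjusted p under 0.01 was not counted. Where no construction of the alternative is named, the cause was not tested. Libraries with the same number did not deviate together (correlation −0.018), and with the replicate block 7 S100 genes were called lower and 2 other members higher, with a median of −0.65 over the S100 genes. Fits that left out a library assume that the lone library of its condition varies like the others. The low depth of shYEATS2 replicate 2 limits every member under about 1 CPM.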

Other observations

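Several genes of low level in the related lists, chosen after their values were seen, also differed. The desmosome genes DSP and PKP1 were lower, DSP at 5.55 and 5.89 CPM in shControl and 1.42 and 1.53 CPM in shYEATS2 (adjusted p = 9.8e-12, edgeR) and PKP1 at 2.91 and 3.07 CPM against 0.828 and 0.678 CPM (adjusted p = 1.2e-07). KRT2, a keratin of the upper epidermis, was at 2.11 and 1.82 CPM in shControl and rested on 1 and 0 counts in shYEATS2. The epithelial ETS factor EHF was at 0.0661 and 0.0264 CPM in shControl, from 3 and 1 counts, and at 1.58 and 2.88 CPM in shYEATS2. PRDM1, a repressor that acts in terminal differentiation, rose from 1.83 and 2.80 to 6.07 and 6.61 CPM (adjusted p = 8.8e-09, edgeR). FGF1, the growth factor exported with S100A13, was at 0.242 and 0.106 CPM in shControl and at 2.13 and 2.97 CPM in shYEATS2. KRT2, EHF and FGF1 had enough counts for a test only in the condition where they were high, so no test is given for them.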
